A study of Mus musculus with 15 samples.

Results

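The genes described here were listed for the mitochondrial breakdown of branched-chain amino acids, propionate and fatty acids. Among them, Bcat1 encodes a cytosolic enzyme and Cpt1c one of the endoplasmic reticulum. The genes were taken by symbol from the deposited table of raw counts: 40 genes were listed and all 40 were in the table, which holds 30386 gene identifiers. Expression was measured in mouse brain with QuantSeq, which reads the 3′ end of polyadenylated RNA. The 15 libraries form 3 groups of 5: WT mice given PBS, a buffered saline (WT_PBS), Tbx1+/- mice given PBS (Het_PBS), and Tbx1+/- mice given vitamin B12 (vB12) at 20 mg/kg in PBS (Het_B12). Each group was 4 weeks old at the first injection and received 2 intraperitoneal injections weekly over 4 weeks. Tbx1 encodes a T-box transcription factor of the chromosomal region lost in 22q11.2 deletion syndrome, and the heterozygotes carry a mutant allele whose deleted part was not given in the sources used here. No WT mice on the vitamin were analysed here, so the vitamin was compared with saline in heterozygotes only. As tissue the labels name a brain hemisphere in some fields and the whole brain in others, and they list more than 1 RNA isolation. The same animal number stands on Het_PBS 5 and Het_B12 1, and no label says that libraries are separate mice. The p-values therefore measure only how these libraries vary, which may be technical.

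Leucine, isoleucine and valine lose their amino group in a transamination, and the branched-chain keto acid dehydrogenase complex then commits the carbon skeletons to breakdown. Isoleucine, valine and odd-chain fatty acids end in propionyl-CoA, which propionyl-CoA carboxylase and the vitamin B12-dependent methylmalonyl-CoA mutase convert to succinyl-CoA for the citric acid cycle. Fatty acids enter the mitochondrion on carnitine and are shortened by rounds of β-oxidation, whose first electrons pass through the electron transfer flavoprotein to the respiratory chain. In brain, glucose is the main fuel and fatty acid oxidation is known chiefly from astrocytes.

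Libraries held 1683258 to 2746122 counts, and values below are counts scaled to library size with TMM factors (CPM). Of the table's genes, 11718 had enough reads to be tested, all 40 members among them. No member was at 0 in any library, although Bcat2 and Mccc2 had 3 reads or fewer in some, and every interval here covers counting and library spread only. Tbx1 itself had 3, 3 and 1 reads in total in WT_PBS, Het_PBS and Het_B12, too few to check the genotype. The pair WT_PBS 3 and Het_PBS 5 stood apart from their groups. On the first principal component over all tested genes, which held 17.4% of the variance, WT_PBS 3 lay at 18.0. This wild type given saline lay nearer to the treated libraries (21.0 to 35.3) than to the other saline libraries (-24.8 to -11.0). On the second component (11.8%), Het_PBS 5 lay at 49.4 and all other libraries lay between -29.6 and 25.0. WT_PBS 3 was the lowest or highest wild type for 25 of the 40 members and Het_PBS 5 the lowest or highest saline heterozygote for 23, against 10 to 19 for the other libraries. The size of the log2 difference, with its sign ignored, was compared with and without these libraries. Without Het_PBS 5 it moved by over 1.5 times for 19 of 40 members between Het_PBS and WT_PBS and for 12 between Het_B12 and Het_PBS. Without WT_PBS 3 it did so for 17 between Het_B12 and WT_PBS. Many of these differences were near 0, and a change of sign at like size is not counted. For the main members so moved, the value without the library is given below.

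Because each QuantSeq read marks 1 transcript end, CPM were compared between genes without division by length. Over the 15 libraries, mean levels ran from 3.85 CPM for Bcat2 to 78.4 CPM for Etfb. Etfb (78.4 ± 19.3, SD) and Hadha (77.6 ± 13.4) stood at the top and differed by less than their spread. Acadsb (57.4 ± 8.84), Acat1 (56.7 ± 8.64) and Bcat1 (46.1 ± 5.56) followed. Within the other role groups the highest were Pccb (32.8 CPM), Auh (39.2), Cpt1c (34.1) and Acadl (41.0). Subunits of 1 enzyme were not level: Etfa stood at 8.53 CPM beside Etfb, Hadhb at 17.3 beside Hadha and Mccc2 at 5.01 beside Mccc1 (18.8). The annotation and strand setting of the counting were not given in the sources used here, and their part in these gaps was not tested.

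The groups were compared pairwise in 1 edgeR quasi-likelihood fit of all libraries, with p-values adjusted over all tested genes. A gene was called at an adjusted p under 0.05, and differences are log2 fold changes ± SE. Between Het_PBS and WT_PBS no member was called, where 0% of all tested genes were. Between Het_B12 and Het_PBS 4 of 40 members (10%) were called, against 7.26% of all tested genes: Etfb and Hadha were lower, Mccc1 and Cpt1c higher. Between Het_B12 and WT_PBS 2 of 40 (5%) were called, Etfb and Acads, both lower, against 7.33% of all tested genes. The member shares therefore lay near the background in every comparison. Of the 4 members whose libraries did not overlap between Het_B12 and Het_PBS (10%, against 7.83% of all tested genes), 2 were higher and 2 lower. Between Het_B12 and WT_PBS 2 members did not overlap (5.38% of all tested genes), and none was called higher, where 3.22% of all tested genes were. Each group stands in 2 of the 3 comparisons, so these share libraries.

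**Figure D1:**
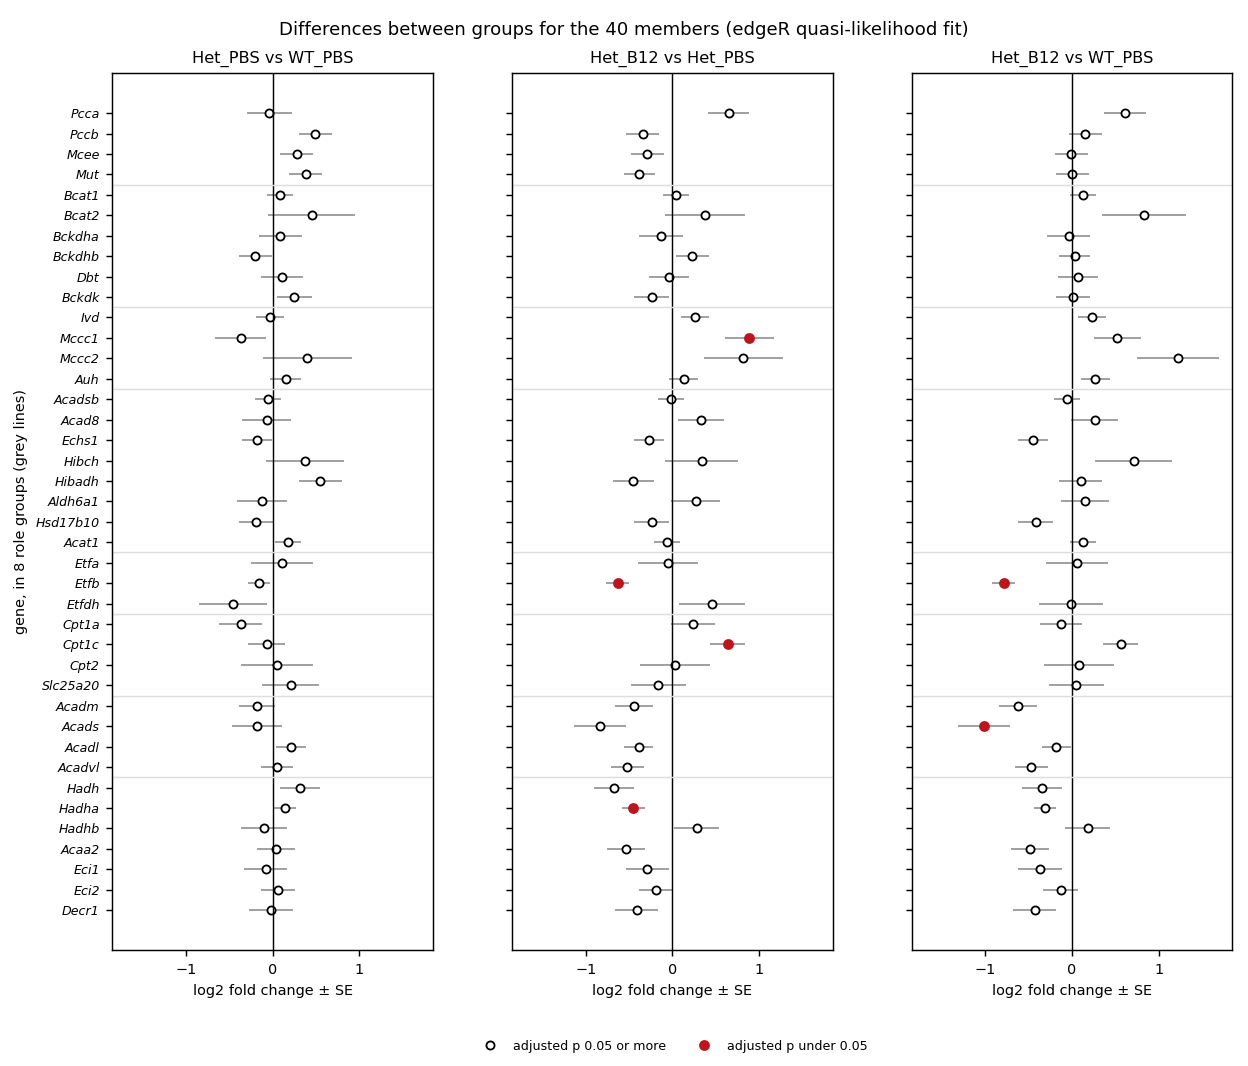
Log2 fold change ± SE (horizontal axis) of each of the 40 genes (vertical axis, in 8 role groups) in the 3 comparisons, with genes at an adjusted p under 0.05 in red. No gene is red in the genotype comparison; in Het_B12 vs Het_PBS the genes of the last 2 role groups, except Hadhb, lie left of 0.

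In the genotype comparison, 22 members lay above 0 and 18 below, with 51.1% of all tested genes below 0 and a member median of 0.05 against -0.01 over all genes. No member's libraries separated the groups without overlap, as 0.836% of all tested genes did (0.393% higher and 0.444% lower). At an unadjusted p under 0.05 there were 3 members (7.5%), against 7.5% of all tested genes. These were Pccb (0.49 ± 0.19), Hibadh (0.55 ± 0.25) and Mut (0.38 ± 0.19), all higher in Het_PBS, with adjusted p of 0.578, 0.621 and 0.66. DESeq2 and limma-voom also called no member. Without Het_PBS 5 the difference of Pccb was 0.39, that of Hibadh 0.33 and that of Mut 0.23.

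In Het_B12 against Het_PBS, 24 of 40 members (60%) lay below 0, against 48.6% of all tested genes, with a median of -0.09 against 0.01. Without single libraries that median ran from -0.16 to -0.03, and over the 20 members with a mean count of at least 50 it was -0.25. The role groups lay in different directions. All 4 acyl-CoA dehydrogenases and 6 of 7 later β-oxidation genes lay below 0, while all 4 genes of the leucine arm lay above 0. The 22 genes of the propionate and branched-chain routes were split, 11 above and 11 below.

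**Figure D2:**
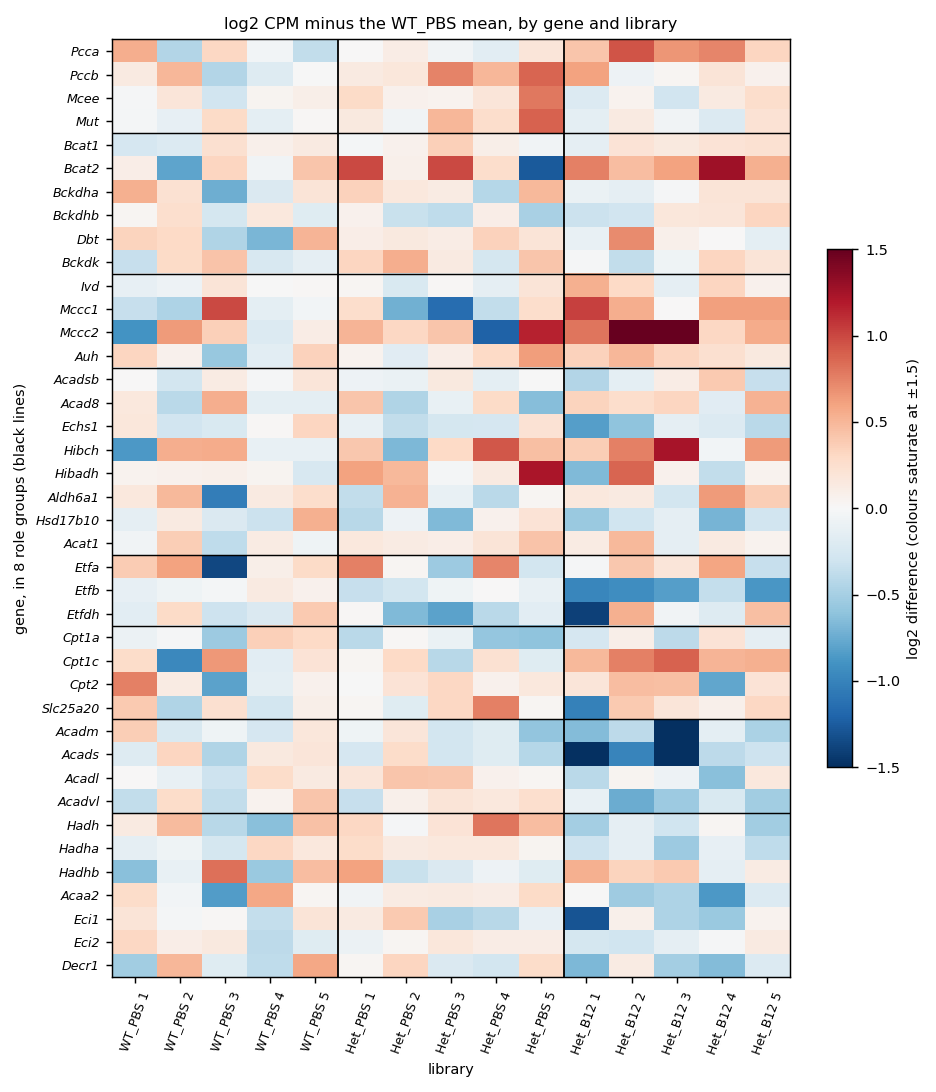
Log2 CPM of each of the 40 genes (rows, in 8 role groups) in each of the 15 libraries (columns) minus the mean of the wild types given saline; red is higher, blue lower, and colours saturate at ±1.5. The rows of the acyl-CoA dehydrogenases are blue in most Het_B12 columns, and the WT_PBS 3 and Het_PBS 5 columns hold the lowest or highest value of their group for 25 and 23 genes.

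The 4 genes that turn propionyl-CoA into succinyl-CoA were not called in any comparison. Mut encodes methylmalonyl-CoA mutase, the mitochondrial enzyme that uses vitamin B12 as a cofactor. It was described for that role, outside the rule for named genes. Mut stood at 27.1, 25.4, 33.9, 25.0 and 28.0 CPM in WT_PBS 1 to 5, at 30.9, 26.7, 39.7, 33.5 and 52.0 in Het_PBS and at 25.0, 30.5, 26.8, 23.8 and 32.4 in Het_B12. The highest value was in Het_PBS 5, and all 3 groups overlapped. The difference from Het_PBS was -0.38 ± 0.18 (adjusted p = 0.208) and -0.23 without Het_PBS 5, and that from WT_PBS was -0.00 with a 95% interval of -0.38 to 0.38.

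Pcca and Pccb encode the α and β subunits of propionyl-CoA carboxylase, a biotin enzyme. Pcca stood at 18.1, 8.68, 15.2, 11.7 and 9.19 CPM in WT_PBS, at 12.2, 13.1, 11.6, 10.7 and 13.8 in Het_PBS and at 16.4, 24.0, 19.7, 20.7 and 15.3 in Het_B12. Every treated library lay above every saline heterozygote, as did 3.75% of all tested genes, but the difference of 0.65 ± 0.24 was not called (adjusted p = 0.0991). Reads of Ggact, which overlaps Pcca on the opposite strand, came to 191% of those of Pcca, and the strand setting of the counting was not given in the sources used here. Pccb stood at 30.0, 38.8, 19.9, 23.8 and 27.2 CPM in WT_PBS, at 29.9, 30.7, 46.2, 38.8 and 50.8 in Het_PBS and at 41.8, 25.8, 27.8, 31.4 and 28.6 in Het_B12. It was highest in Het_PBS 5, the groups overlapped, and Het_B12 differed from Het_PBS by -0.34 ± 0.19 (adjusted p = 0.306). Mcee, methylmalonyl-CoA epimerase, differed by -0.29 ± 0.19 (adjusted p = 0.384), and by -0.14 without Het_PBS 5. The summed level of the 4 genes in CPM (SD, n = 5) was 94.4 ± 6.71 for WT_PBS, 120 ± 25.4 for Het_PBS, where Het_PBS 5 stood at 162, and 104 ± 4.94 for Het_B12. Without that library the Het_PBS sum was 110 ± 11.4 (SD, n = 4).

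None of the 6 genes for transamination and the keto acid dehydrogenase was called. Bcat1 and Bcat2 encode the cytosolic and mitochondrial branched-chain aminotransferases, Bckdha and Bckdhb the subunits of the decarboxylase, Dbt the acyltransferase core and Bckdk the inhibitory kinase. Bckdhb stood at 31.2, 36.4, 25.1, 34.2 and 26.7 CPM in WT_PBS, at 31.8, 23.9, 23.3, 32.6 and 21.5 in Het_PBS and at 24.1, 24.7, 34.3, 34.6 and 38.4 in Het_B12. The groups overlapped, and Het_B12 differed from Het_PBS by 0.23 ± 0.19 (adjusted p = 0.525). Bckdk stood at 19.7, 31.2, 34.5, 21.3 and 23.0 CPM in WT_PBS, at 31.8, 37.4, 28.0, 21.1 and 34.1 in Het_PBS and at 25.0, 19.3, 24.1, 31.8 and 28.9 in Het_B12. These ranges overlapped too, with Het_PBS at 0.25 ± 0.20 from WT_PBS (adjusted p = 0.839) and Het_B12 at -0.24 ± 0.20 from Het_PBS (adjusted p = 0.539). Bcat2, the member with the lowest level, was above every wild type in every treated library (3.94 to 7.55 against 1.16 to 3.76 CPM), but its difference of 0.83 ± 0.48 was not called (adjusted p = 0.326). Of all tested genes, 2.44% were higher in Het_B12 than in WT_PBS without overlap.

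Mccc1 encodes the biotin-carrying α subunit of methylcrotonyl-CoA carboxylase in leucine breakdown (chr3:35959312-36000678, minus strand) and was called higher in Het_B12 than in Het_PBS. It stood at 12.7, 11.6, 33.3, 14.6 and 15.9 CPM in WT_PBS, at 19.7, 9.56, 6.90, 12.4 and 19.7 in Het_PBS and at 34.1, 24.0, 16.3, 25.4 and 25.5 in Het_B12. The lowest treated library lay within the range of the saline heterozygotes, and WT_PBS 3 was far above the other wild types. Mccc1 was 1.86-fold higher in Het_B12 than in Het_PBS (0.89 ± 0.28, adjusted p = 0.0431). Against WT_PBS the difference was 0.52 ± 0.27 (adjusted p = 0.267), and without WT_PBS 3 it was 0.85 (adjusted p = 0.0323). The call against Het_PBS was lost without Het_PBS 2, 3 or 4 or Het_B12 1, 2, 4 or 5, with adjusted p up to 0.135, and with an offset for transcript length (0.79, adjusted p = 0.082).

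Mccc2, the β subunit, differed from Het_PBS by 0.82 ± 0.46 (adjusted p = 0.297). Ivd, isovaleryl-CoA dehydrogenase, stood at 0.26 ± 0.16 and Auh, the methylglutaconyl-CoA hydratase, at 0.13 ± 0.17. The summed level of the leucine arm was 92.5 ± 7.93 CPM in WT_PBS, 93.2 ± 18.0 in Het_PBS and 118 ± 14.6 in Het_B12, and the treated range of 103 to 136 overlapped that of Het_PBS at 122.

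No gene of the isoleucine and valine arms was called. Hibadh encodes hydroxyisobutyrate dehydrogenase of the valine route. It stood at 20.5, 20.8, 21.0, 20.4 and 16.7 CPM in WT_PBS, at 30.4, 28.3, 19.4, 21.9 and 47.2 in Het_PBS and at 12.3, 36.9, 20.7, 15.1 and 20.6 in Het_B12. The wild types lay close together, while both heterozygote groups spread more widely and overlapped them. Hibadh differed between Het_B12 and Het_PBS by -0.45 ± 0.24 (adjusted p = 0.276). Without Het_PBS 5 that difference was -0.23, and without Het_B12 2 it was -0.75 (adjusted p = 0.0528). The other 7 lay between -0.27 ± 0.17 for Echs1, the short-chain enoyl-CoA hydratase that also serves β-oxidation, and 0.34 ± 0.42 for Hibch, hydroxyisobutyryl-CoA hydrolase, with Echs1 at -0.17 without Het_PBS 5. Against WT_PBS, Echs1 stood at -0.45 ± 0.17 (adjusted p = 0.112) and Hsd17b10, the dehydrogenase of the isoleucine route, at -0.42 ± 0.20 (adjusted p = 0.201). Acadsb, Acad8, Aldh6a1 and Acat1, which act on the branched acyl-CoAs, methylmalonate semialdehyde and acetoacetyl-CoA, lay between -0.06 ± 0.15 and 0.33 ± 0.27 against Het_PBS.

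Etfb encodes the β subunit of the electron transfer flavoprotein, which takes electrons from the acyl-CoA dehydrogenases. The gene lies at chr7:43444083-43457800 (plus strand, GRCm38) and fell in Het_B12 against both saline groups. Etfb stood at 87.5, 90.8, 92.9, 104 and 99.4 CPM in WT_PBS, at 74.9, 78.0, 90.6, 94.6 and 87.9 in Het_PBS and at 47.7, 49.4, 53.0, 73.5 and 51.6 in Het_B12. All treated libraries lay below all saline ones, and Het_B12 4 lay closest to them. Etfb was 1.55-fold lower than in Het_PBS (-0.63 ± 0.13, adjusted p = 0.00217) and 1.73-fold lower than in WT_PBS (-0.79 ± 0.13, adjusted p = 0.000198). Of all tested genes, 4.07% were lower than in Het_PBS without overlap and 2.94% lower than in WT_PBS. In bulk RNA, fewer cells of a type and less RNA per cell cannot be told apart.

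The calls of Etfb held without any single library, with adjusted p up to 0.0117 against Het_PBS and 0.0014 against WT_PBS. Length of the transcript moved with this result. Across 11712 genes, fold changes between Het_B12 and Het_PBS rose with the longest annotated transcript (Spearman's rho 0.257 as a description across genes, 0.294 over the 40 members), and that of Etfb has 893 nucleotides against a median of 3604. With an offset for transcript length in each library, Etfb stood at -0.36 against Het_PBS (adjusted p = 0.117) and at -0.62 against WT_PBS (adjusted p = 0.00377). Etfa, the α subunit, stood at -0.05 ± 0.35 and Etfdh, the ubiquinone oxidoreductase that accepts the electrons, at 0.46 ± 0.38 against Het_PBS. The summed level of the 3 genes was 111 ± 8.11 CPM in WT_PBS, 99.6 ± 8.41 in Het_PBS and 71.1 ± 12.5 in Het_B12, carried mainly by Etfb.

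**Figure D3:**
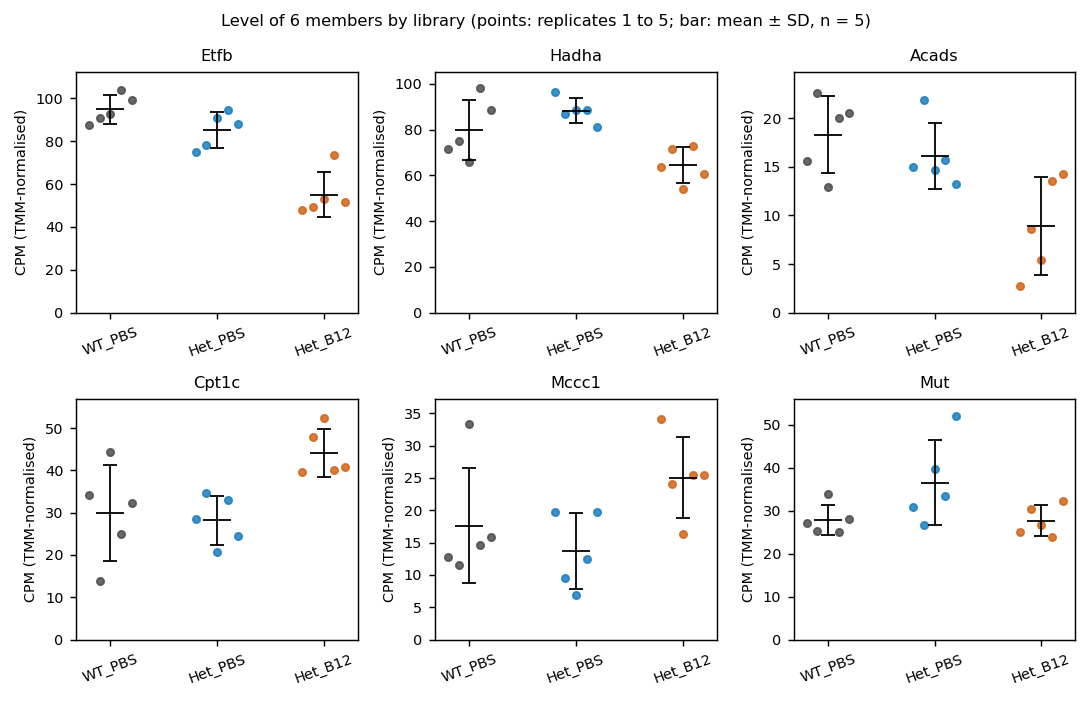
TMM-normalised CPM (vertical axis, from 0) of Etfb, Hadha, Acads, Cpt1c, Mccc1 and Mut in the 5 libraries of each group (points, replicates 1 to 5 from left to right; bars, mean ± SD). The Het_B12 points of Etfb lie at 47.7 to 73.5, below all saline libraries, and those of Mut overlap both saline groups.

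Among the 4 genes of the carnitine shuttle, Cpt1c was called. It encodes the neuronal, endoplasmic reticulum form of carnitine palmitoyltransferase 1, which has little of the transferase activity of its relatives (chr7:44959372-44974851, minus strand). Cpt1c stood at 34.1, 13.9, 44.4, 25.0 and 32.2 CPM in WT_PBS, at 28.5, 34.6, 20.7, 33.0 and 24.5 in Het_PBS and at 39.6, 48.0, 52.3, 40.1 and 40.8 in Het_B12. All treated libraries lay above all saline heterozygotes, while the wild types ran from below the saline heterozygotes into the treated range. Cpt1c was 1.56-fold higher than in Het_PBS (0.64 ± 0.20, adjusted p = 0.043), against 3.47% of all tested genes called higher, and differed from WT_PBS by 0.56 ± 0.20 (adjusted p = 0.0797). The call against Het_PBS was lost with the replicate block (0.62, adjusted p = 0.0619), without WT_PBS 3 and Het_PBS 5 together (0.59, adjusted p = 0.0529), with the length offset (0.61, adjusted p = 0.0588) and without Het_PBS 1, 3, 4 or 5 or any single Het_B12 library, with adjusted p up to 0.125. Against WT_PBS Cpt1c was called without that pair (0.72, adjusted p = 0.0117), with limma-voom (0.64, adjusted p = 0.0413) and with no filter on low counts (0.57, adjusted p = 0.0422).

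Cpt1a, the liver-type enzyme that controls fatty acid entry, stood at 14.8, 15.6, 10.5, 20.4 and 19.6 CPM in WT_PBS, at 11.7, 15.9, 14.7, 10.3 and 10.2 in Het_PBS and at 13.2, 16.8, 11.9, 18.3 and 14.3 in Het_B12. The 3 groups overlapped, and Het_B12 differed from Het_PBS by 0.24 ± 0.25 (adjusted p = 0.636). Cpt2, the inner-membrane transferase, stood at 0.03 ± 0.40 and Slc25a20, the carnitine-acylcarnitine carrier, at -0.16 ± 0.32.

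The 11 genes of the β-oxidation rounds themselves lay mostly below 0 in Het_B12. They join the acyl-CoA dehydrogenases and the later steps, a grouping made after their values were seen. Against Het_PBS, 10 of 11 lay below 0 with a median of -0.44, against 48.6% below 0 and a median of 0.01 over all genes, and Hadha was the member called lower, where 3.79% of all tested genes were. Against WT_PBS, 10 of 11 lay below 0 (49.2% of all tested genes) with a median of -0.37, and Acads was called lower, where 4.11% of all tested genes were. Their summed level was 323 ± 33.2 CPM in WT_PBS, 338 ± 12.2 in Het_PBS (325 to 357) and 254 ± 20.2 in Het_B12 (227 to 273). The treated sums lay below all saline sums, the lowest of which was 278 in WT_PBS. With the length offset 10 of 11 again lay below 0 against Het_PBS, with a median of -0.41, and without WT_PBS 3 and Het_PBS 5 the median was -0.48.

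**Figure D4:**
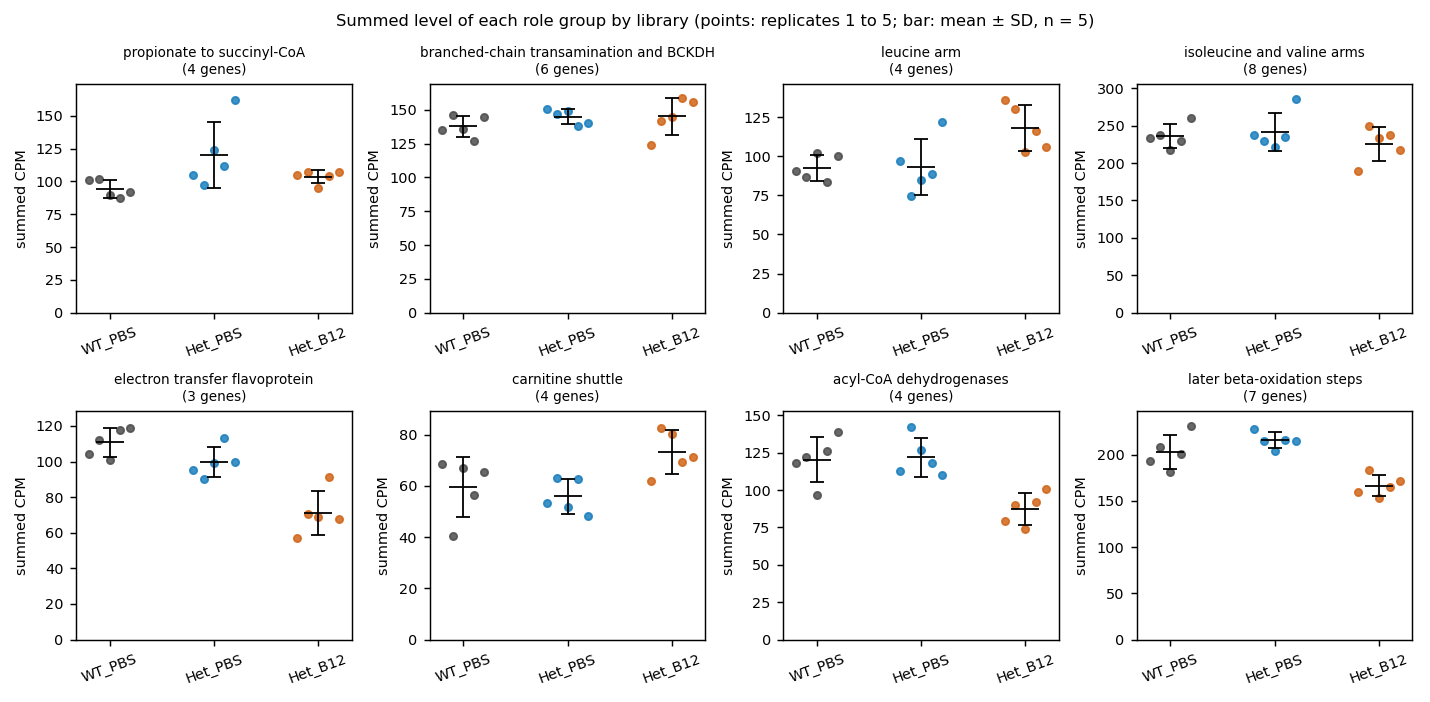
Summed CPM (vertical axis, from 0) of each of the 8 role groups in the 5 libraries of each group (points; bars, mean ± SD). The acyl-CoA dehydrogenases, the later β-oxidation steps and the electron transfer flavoprotein have lower Het_B12 means (87.3, 166 and 71.1) than Het_PBS means (122, 216 and 99.6), and the propionate genes have 1 Het_PBS library at 162.

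Acads encodes the short-chain acyl-CoA dehydrogenase (chr5:115110299-115119346, minus strand). It stood at 15.6, 22.6, 12.9, 20.0 and 20.5 CPM in WT_PBS, at 15, 21.9, 14.7, 15.7 and 13.2 in Het_PBS and at 2.73, 8.60, 5.43, 13.5 and 14.3 in Het_B12. Of the treated libraries, 3 lay below every saline library and 2 lay within the saline range. Acads was 2.03-fold lower than in WT_PBS (-1.02 ± 0.30, adjusted p = 0.0284). Against Het_PBS the difference was -0.84 ± 0.30 (adjusted p = 0.0774), with fits without single libraries between -1.08 and -0.63. It was called with the replicate block (-0.92, adjusted p = 0.0454) and with limma-voom (-1.02, adjusted p = 0.039). Of the 15 fits without single libraries 2 called it, with adjusted p up to 0.206 in the others. The length offset did not call it (-0.78, adjusted p = 0.12). The call against WT_PBS was lost without WT_PBS 2, 4 or 5 or Het_B12 1, 2 or 3, with adjusted p up to 0.0887, and it held with the length offset (-0.98, adjusted p = 0.0366).

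The other dehydrogenases act on longer chains. Acadl, the long-chain enzyme, stood at 40.2, 37.0, 32.1, 48.8 and 43.9 CPM in WT_PBS, at 45.4, 53.8, 53.1, 41.7 and 40.7 in Het_PBS and at 30.0, 41.2, 37.7, 25.4 and 44.6 in Het_B12. The groups overlapped, with Het_B12 at -0.39 ± 0.17 from Het_PBS (adjusted p = 0.154) and at -0.18 ± 0.17 from WT_PBS (adjusted p = 0.585). Acadm, the medium-chain enzyme, stood at -0.44 ± 0.22 against Het_PBS (adjusted p = 0.234) and at -0.62 ± 0.22 against WT_PBS (adjusted p = 0.0736). Of the 15 fits without single libraries, 1 called it against WT_PBS, without Het_B12 4 (-0.76, adjusted p = 0.0415). In the others adjusted p ran up to 0.219. Acadvl, the very-long-chain enzyme, stood at -0.52 ± 0.19 against Het_PBS (adjusted p = 0.0996). Reads of Dvl2, on the opposite strand, came to 81.7% of those of Acadvl.

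Hadha and Hadhb encode the α and β subunits of the mitochondrial trifunctional protein, which carries out the last 3 steps on long chains. Hadha (chr5:30118304-30155162, minus strand) was called lower in Het_B12 than in Het_PBS. Hadha stood at 71.4, 75.2, 66.0, 98.0 and 88.6 CPM in WT_PBS, at 96.4, 86.8, 88.5, 88.4 and 81.3 in Het_PBS and at 63.6, 71.7, 54.0, 72.7 and 60.7 in Het_B12. All treated libraries lay below all saline heterozygotes and overlapped the wild types. Hadha was 1.37-fold lower than in Het_PBS (-0.45 ± 0.13, adjusted p = 0.0268) and differed from WT_PBS by -0.31 ± 0.13 (adjusted p = 0.154). With the length offset it was the only member called against Het_PBS (-0.50, adjusted p = 0.0172). The call was lost without Het_PBS 1, 3 or 4 or Het_B12 1, 3 or 5, with adjusted p up to 0.085.

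Hadhb stood at 9.85, 14.5, 28.6, 10.4 and 22.1 CPM in WT_PBS, at 24.3, 12.3, 13.4, 14.9 and 13.8 in Het_PBS and at 23.2, 20.1, 21.1, 14.3 and 17.1 in Het_B12. It was the β-oxidation gene that lay above 0 against Het_PBS (0.28 ± 0.26, adjusted p = 0.588), and its groups overlapped. The log2 ratio of Hadha to Hadhb counts within a library was 2.51 ± 0.32 in Het_PBS, against 1.75 ± 0.39 in the treated libraries (SD, n = 5), a difference of -0.76 (two-sided exact permutation p = 0.0159, adjusted p = 0.119 over 15 tests, smallest possible p 0.00794). Among the 5 subunit pairs, chosen after their values were seen, no ratio passed after adjustment in any comparison. Pcca to Pccb differed between Het_B12 and Het_PBS by 0.95 and Etfa to Etfb between Het_B12 and WT_PBS by 0.98, each with an exact permutation p of 0.0238 and an adjusted p of 0.119. Without WT_PBS 3 the Etfa to Etfb difference was 0.61 (adjusted p = 0.149).

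**Figure D5:**
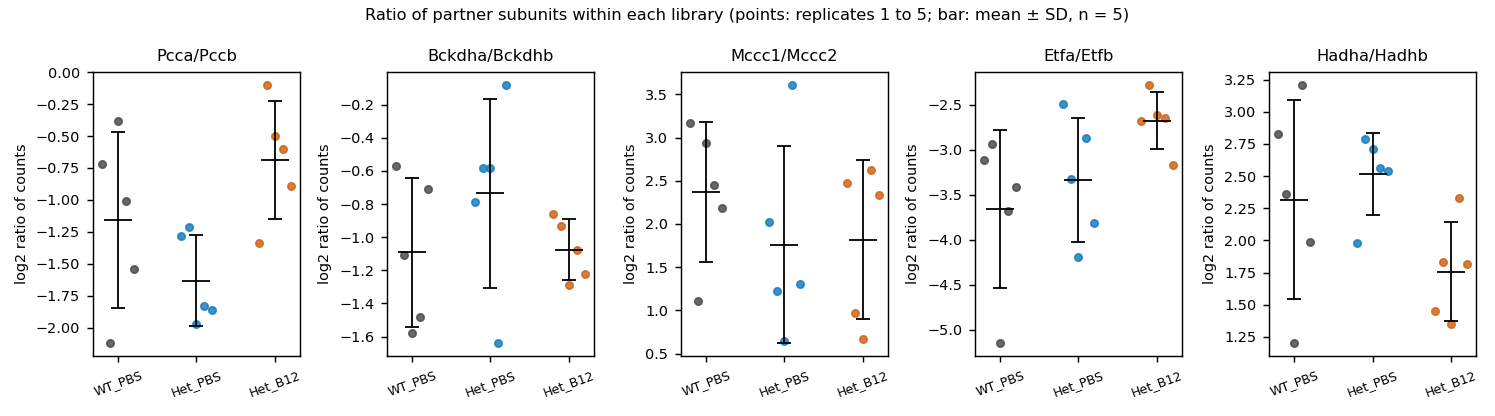
Log2 ratio of counts of partner subunits within each library (vertical axis; scales differ between panels) for 5 enzymes, in the 5 libraries of each group (points; bars, mean ± SD). The Hadha/Hadhb ratio has means of 2.51 in Het_PBS and 1.75 in Het_B12, and the ranges of these 2 groups overlap.

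Hadh, the short-chain hydroxyacyl-CoA dehydrogenase, stood at 21.8, 27.8, 14.6, 12.5 and 27.2 CPM in WT_PBS, at 24.8, 19.5, 22.9, 35.1 and 27.5 in Het_PBS and at 13.6, 17.9, 16, 20.3 and 13.6 in Het_B12. Only Het_B12 4 reached the range of the saline heterozygotes. The difference was -0.67 ± 0.23 (adjusted p = 0.0668), and DESeq2 (-0.68, adjusted p = 0.048) and a fit of these 2 groups alone (-0.68, adjusted p = 0.0362) called it. Of the 15 fits without single libraries 2 called it, with adjusted p up to 0.218 in the others. The length offset did not call it (-0.71, adjusted p = 0.0584). Acaa2, the mitochondrial thiolase, stood at -0.53 ± 0.22 against Het_PBS (adjusted p = 0.143) and at -0.49 ± 0.22 against WT_PBS (adjusted p = 0.183). Of the 15 fits without single libraries, 1 called it against WT_PBS, without WT_PBS 3 (-0.65, adjusted p = 0.0386). In the others adjusted p ran up to 0.474. The auxiliary enzymes for unsaturated chains, Eci1, Eci2 and Decr1, stood at -0.29 ± 0.25, -0.19 ± 0.20 and -0.41 ± 0.25 against Het_PBS.

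Sequence before the gene start was read from RefSeq promoter windows (GRCm38), which were matched for 35 of the 40 members (40 windows) and not for Mut, Dbt, Acat1, Acaa2 and Decr1. The stretches below belong to the 5 called members and are given because their values set them apart. Hadha and Hadhb are transcribed away from each other, and the whole stretch between their GENCODE M21 starts is the first line. Capitals mark matches on either strand to GGGCGG (GC box), CCAAT or AGGTCA, and each line runs 5′ to 3′ on the strand named.
Hadha/Hadhb (chr5:30155163-30155247, plus strand): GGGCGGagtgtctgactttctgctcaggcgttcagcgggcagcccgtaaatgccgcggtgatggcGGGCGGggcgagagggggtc
Etfb (chr7:43443922-43444071, plus strand): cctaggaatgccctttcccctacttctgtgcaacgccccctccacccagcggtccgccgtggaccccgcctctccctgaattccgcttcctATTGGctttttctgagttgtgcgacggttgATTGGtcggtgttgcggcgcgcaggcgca
Acads (chr5:115119347-115119496, minus strand): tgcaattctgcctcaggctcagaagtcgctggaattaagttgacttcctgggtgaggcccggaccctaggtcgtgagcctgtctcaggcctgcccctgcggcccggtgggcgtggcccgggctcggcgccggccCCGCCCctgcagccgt
Mccc1 (chr3:36000712-36000861, minus strand, ending short of the start, where an exon of Mccc1os lies): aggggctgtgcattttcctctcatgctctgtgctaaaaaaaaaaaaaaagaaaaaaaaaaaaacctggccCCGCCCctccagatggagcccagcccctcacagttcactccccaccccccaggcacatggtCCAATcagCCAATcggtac
Cpt1c (chr7:44974852-44975001, minus strand): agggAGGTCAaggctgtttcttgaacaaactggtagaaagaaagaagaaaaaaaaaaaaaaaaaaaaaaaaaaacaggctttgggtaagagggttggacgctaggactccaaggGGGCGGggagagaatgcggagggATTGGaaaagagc
In the 250 bases before the start, GGGCGG was found in 55% of the member windows against 32.7% of all 32851 windows, and CCAAT in 52.5% against 33.8%. AGGTCA, the half-site of many nuclear receptors, was in 22.5% against 14%, and its extended form TNAAGGTCA, which contains it, was in 0% against 1.14%. The NRF1 motif, searched as its palindromic core, was in 2.5% against 0.782%, in the window of Etfdh. All windows were counted whether or not their gene was tested here, while every member was tested, and the shares among tested genes alone were not computed. A match describes these letters and not a binding site.

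The rest of the pathway was read from 5 further lists, in which no gene was called between Het_PBS and WT_PBS. For fatty acid uptake, activation and carnitine, 4 of 15 tested genes were called lower in Het_B12 than in Het_PBS, against 3.79% of all tested genes, and none higher, and 14 of 15 lay below 0. Dbi, the acyl-CoA-binding protein, fell by 0.73 (SE 0.10) from 912 ± 56.8 to 551 ± 19.0 CPM (adjusted p = 2.14e-05). Fabp5, a fatty acid-binding protein, differed by -0.91 ± 0.16 (adjusted p = 0.000262), and Acsl3, a long-chain acyl-CoA synthetase, by -0.57 ± 0.11 (adjusted p = 0.000811). Crot, the peroxisomal carnitine octanoyltransferase, differed by -1.17 ± 0.29 (adjusted p = 0.0087). Against WT_PBS these 4 and Fabp3, the heart-type binding protein (-0.54 ± 0.14, adjusted p = 0.0182), were called lower, where 4.11% of all tested genes were. Across genes, fold changes in both comparisons rose with transcript length. Values with the length offset are not given for the genes of these lists.

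Of 11 peroxisomal β-oxidation genes none was called in any comparison, with Scp2, the sterol carrier protein thiolase, nearest at -0.72 ± 0.25 against Het_PBS (adjusted p = 0.065). Abcd2, a peroxisomal fatty acid transporter, stood at -0.51 ± 0.19 (adjusted p = 0.0898). Of 6 ketone body genes, none was called against Het_PBS and 2 were called lower than in WT_PBS, where 4.11% of all tested genes were. These were Oxct1, which activates acetoacetate for use as fuel (-0.41 ± 0.10, adjusted p = 0.00605), and Slc16a1, a monocarboxylate transporter (-0.64 ± 0.19, adjusted p = 0.0283). Of 19 further genes of the branched-chain and propionate routes, 1 was called, lower than in Het_PBS, where 3.79% of all tested genes were. This was Ppm1k, the phosphatase that activates the keto acid dehydrogenase (-0.48 ± 0.14, adjusted p = 0.0252). The genes that prepare or deliver the B12 cofactor to the mutase were not called against Het_PBS: Mmaa stood at 0.23 ± 0.29, Mmab at 0.02 ± 0.25, Mmachc at -0.10 ± 0.36 and Mmadhc at -0.06 ± 0.19. Of 11 regulators, 2 were called higher than in Het_PBS, where 3.47% of all tested genes were. These were Ppard, a fatty acid-sensing nuclear receptor (1.5 ± 0.42, adjusted p = 0.0219), and Ppargc1b, a coactivator of mitochondrial genes (0.60 ± 0.18, adjusted p = 0.0293). Neither was called against WT_PBS, where the highest difference of any of the 11 was 0.92.

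Markers of several cell types differed between Het_B12 and Het_PBS, where 3.79% of all tested genes were called lower and 3.47% higher. Of 18 astrocyte markers, 10 were called lower in Het_B12 than in Het_PBS and none higher, and their summed level ran from 6903 to 9403 CPM in WT_PBS, 8453 to 9551 in Het_PBS and 5676 to 6638 in Het_B12. Of 12 microglial markers 5 were lower, with sums of 470 to 802, 600 to 825 and 384 to 481 CPM in the same order. Of 10 endothelial markers tested 6 were higher, with sums over their list of 104 to 163, 107 to 164 and 219 to 306 CPM. All marker sums cover every listed gene found in the deposited counts, tested or not.

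Neuronal markers, by contrast, kept overlapping sums of 11637 to 13707, 11160 to 13208 and 11512 to 12672 CPM. Of these 16, 1 was called higher (6.25%, against 3.47% of all tested genes). Of 12 oligodendrocyte markers 3 were lower (25%, against 3.79% of all tested genes), with sums of 4166 to 8926, 5189 to 8934 and 4819 to 6739 CPM. All 5 erythroid markers tested were lower, with sums of 489 to 1298, 778 to 4998 and 499 to 980 CPM. None of 6 liver markers tested was called, with sums over their list of 762 to 1429, 1278 to 1835 and 940 to 1519 CPM. The liver list holds Ttr, which is not specific to liver, so its sum does not measure liver RNA. No listed marker was at 0 in every library. Gm42418, a transcript that overlaps ribosomal RNA sequence, took 10.6 to 14.9% of counts in WT_PBS, 6.47 to 10.3% in Het_PBS and 3.31 to 6.28% in Het_B12. The part of these shifts in the differences of the members was not tested.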

How the data were processed

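The authors deposited raw read counts per gene for 15 libraries. STAR, HTSeq, edgeR and the build mm10 are named in the submitters' processing notes; their versions, annotation and strand setting were not given in the sources used here. QuantSeq 3′ libraries were made, per the labels' protocols. Groups came from the sample titles. No library was treated as a duplicate. Pairs within groups differed by a chi-square of at least 3.03 per degree of freedom, and Het_PBS 5 and Het_B12 1 by 10.3. These values do not show whether 2 libraries came from 1 animal. Counts were filtered with filterByExpr, scaled by TMM and fitted in edgeR 4.0.16 (R 4.3.3, quasi-likelihood, 1 mean per group, 12 residual degrees of freedom), with Benjamini-Hochberg adjustment over 11718 genes. The same fit was run on simulated counts for each comparison. It recovered 73 to 76% of 2-fold and 35 to 40% of 1.5-fold changes, so many smaller differences would be missed. Of its calls, 3.57 to 7.32% were false. Totals of 1683258 to 2746122 counts limit low genes. Coordinates and lengths came from GENCODE M21 (GRCm38). Members and lists were chosen with earlier results of these data known. Values in every library are given for members called in any comparison and for those with the smallest p of their role group in the genotype or vitamin comparison, 13 in all, and outside that rule for Mut, for its role, and Hadhb, as partner of Hadha after values were seen; for other lists, genes called and up to 2 with the smallest p, and outside the rule Mmaa, Mmab, Mmachc and Mmadhc, for their role. For 9 members an overlapping gene on the opposite strand had over 10% as many reads (Pcca, Mut, Bcat2, Bckdha, Acadsb, Echs1, Aldh6a1, Acadvl and Hadha), so their counts are uncertain. Subunit ratios used a pseudocount of 0.5. Alternatives were DESeq2 1.42.0 size factors and Wald test, limma-voom (limma 3.58.1), other count filters, a fit of the compared groups alone, a replicate block, removal of Gm42418 and mitochondrially encoded genes, and removal of libraries. The length offset, the ratios and their settings, the joined β-oxidation group, and fits without single libraries for members outside the rule were added after seeing the data.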

Additional observations from a re-analysis of the deposited data

Results flagged for a closer look

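Of 120 sets of 5 libraries (40 genes in 3 groups), 7 held a library that stood far from the other 4, where chance gives about 1 set in 20. Etfb, called lower in Het_B12, stood at 73.5 CPM in Het_B12 4, against 47.7 to 53.0 in the other treated libraries. Mccc1, called higher in Het_B12 than in Het_PBS, stood at 33.3 CPM in WT_PBS 3, against 11.6 to 15.9 in the other wild types. Hadhb stood at 24.3 CPM in Het_PBS 1, against 12.3 to 14.9. The methylmalonyl-CoA epimerase gene Mcee stood at 45.4 CPM in Het_PBS 5, against 26.8 to 31.8. Dbt stood at 31.2 CPM in Het_B12 2, against 16.7 to 19.7. Lower than their groups were Bcat1 at 39.6 CPM in Het_B12 1, against 48.2 to 51.3, and Hibadh at 16.7 CPM in WT_PBS 5, against 20.4 to 21.0. These values came from 7 different libraries.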

How the results depend on the processing

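The 9 alternatives other than the length offset and single libraries include removal of WT_PBS 3 and Het_PBS 5 together. That pair was picked because it stood apart in these data. Between Het_PBS and WT_PBS no member was called under any of the 9, without any single library or with the length offset. Over all genes the count of 0 became 40 with no filter on low counts, 1 without WT_PBS 3 and Het_PBS 5, and 0 to 14 without single libraries. Between Het_B12 and Het_PBS the 9 alternatives called 3 to 5 members against 4, the length offset 1, and fits without single libraries 1 to 5; all genes called ran from 549 to 1050 in those fits, against 851. The member median of -0.09 was -0.25 with a mean count of at least 50. Between Het_B12 and WT_PBS 2 members were called; a mean count of at least 50 gave 1, limma-voom 4, removal of WT_PBS 3 and Het_PBS 5 gave 7, and single libraries 1 to 5, with 5 without WT_PBS 3. Over all genes the count of 859 became 1390 without that pair and 449 to 1268 without single libraries. The cause was not tested, except that the count minimum leaves 20 members. No called result changed direction in these fits. With the replicate block 0, 4 and 2 members were called in these comparisons; Cpt1c (0.62, adjusted p = 0.0619) left and Acads (-0.92, adjusted p = 0.0454) entered against Het_PBS. The replicate numbers were not taken to pair samples: correlations of same-numbered libraries ran from -0.093 to 0.106, 1 of 15 over 0.1, and 5 of 15 were highest with their own number. No subunit ratio passed with a pseudocount of 0 or 5 or without single libraries. Depth limits the genes under about 10 CPM most: Mccc2 (0.82 ± 0.46) and Bcat2 (0.38 ± 0.46) could not be resolved against Het_PBS.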
